A study of Homo sapiens with 11 samples.

Results

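Heme oxygenase 1 (HMOX1) and 8 further genes commonly read as the output of the transcription factor NRF2 are described here: NQO1, GCLM, GCLC, SLC7A11, TXNRD1, SRXN1, OSGIN1 and ME1. They were chosen by symbol, with earlier results of these data known. How many of them were called is therefore a description and no independent test of the set. Each of the 9 symbols matched 1 of the 58735 gene identifiers in the count tables, and all 9 passed the filter on low counts in every comparison. The libraries came from AsPC-1 and PANC-1, established human pancreatic cancer cell lines, and the study compared cells given small interfering RNA (siRNA) against MYEOV, a gene overexpressed in some tumours, with control cells. There were 2 AsPC-1 control, 3 AsPC-1 siRNA, 3 PANC-1 control and 3 PANC-1 siRNA libraries, and RNA of the siRNA groups was taken 48 hours after transfection with lipofectamine. AsPC-1 was grown in RPMI 1640 and PANC-1 in DMEM, both with fetal bovine serum, so line and medium cannot be told apart. The control libraries are titled wild type and described as untreated, while the protocol lists a negative-control siRNA as well. Whether the control cells were transfected is therefore unknown, and the siRNA and the transfection cannot be told apart. The protocol lists a pair of MYEOV siRNAs, and the sources used here do not say which library received which. No label states that libraries of a group were separate cultures, so each p-value is set against differences among these libraries alone, and those may be technical.

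NRF2, encoded by NFE2L2, is held at a low level by KEAP1, which marks it for degradation. Oxidants and electrophiles block KEAP1, and NRF2 then pairs with a small MAF protein and binds the antioxidant response element in its target genes. BACH1 is a haem-sensing repressor that occupies many of the same elements, with HMOX1 as its best-known target. Pancreatic and other tumours can rely on this programme for glutathione supply and detoxification.

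The siRNA target was lower in every siRNA library. MYEOV stood at 130 and 131 CPM (counts scaled to library size) in the AsPC-1 controls against 42.9, 50.7 and 48.1 CPM with siRNA, and at 64.4 to 75.1 CPM in the PANC-1 controls against 35.8 to 39.8 CPM. The log2 fold changes were -1.48 and -0.88 (edgeR's quasi-likelihood test, Benjamini-Hochberg adjusted p = 1.95e-16 and 4.19e-06). Library totals ran from 12113093 to 15066456 counts. Counts of any 2 libraries of a group differed by more than sampling noise, and PANC-1 control replicate 2 stood furthest from its group. Of the ductal markers, KRT8 was at 912 CPM or more in every library, KRT7 was nearly absent from both lines, at 3.56 CPM or less, and EPCAM was at 938 to 1015 CPM in AsPC-1 controls and 4.82 to 6.51 CPM in PANC-1 controls. Of markers of other cells, CD3E had 0 counts in all 11 libraries, PTPRC and CDH5 had at most 2 counts, LYZ reached 30.2 CPM in AsPC-1, and COL1A1 reached 42.8 CPM in PANC-1.

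The antioxidant response element was looked for in the members' promoters because these genes moved together in AsPC-1. RefSeq (GRCh38.p14) gave the bases from 250 before to 50 after the transcription start of 7 members, and no promoter of HMOX1 or SLC7A11 was in the table used. The core element TGACNNNGC, searched on both strands, was present in 13.3% of all 35116 promoters and in 4 of the 8 promoters of the members, which belong to GCLM, ME1 and TXNRD1 (both of its starts). The AP-1 word TGAGTCA was present in 4.95% of promoters and in OSGIN1 and ME1, where it overlaps the element. The word TGATGNAA, bound by ATF4 with a C/EBP partner, was present in 3.62% of promoters and in 0 members. Of these, 1 promoter each of GCLM, TXNRD1 and ME1 is printed 5′ to 3′ on the strand of the gene, with the 9 bases of each match in capitals. A match to these letters is a description of the sequence, and no binding was measured. Sequence outside this window was not searched, so a member without a match may carry the element elsewhere.
GCLM, chr1:93909381-93909680, minus strand: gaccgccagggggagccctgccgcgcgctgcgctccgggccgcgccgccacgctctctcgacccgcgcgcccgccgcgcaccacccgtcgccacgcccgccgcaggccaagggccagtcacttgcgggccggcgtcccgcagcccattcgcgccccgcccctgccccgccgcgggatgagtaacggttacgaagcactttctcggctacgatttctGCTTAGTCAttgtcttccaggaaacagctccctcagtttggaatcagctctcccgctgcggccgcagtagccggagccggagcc
TXNRD1, chr12:104215529-104215828, plus strand: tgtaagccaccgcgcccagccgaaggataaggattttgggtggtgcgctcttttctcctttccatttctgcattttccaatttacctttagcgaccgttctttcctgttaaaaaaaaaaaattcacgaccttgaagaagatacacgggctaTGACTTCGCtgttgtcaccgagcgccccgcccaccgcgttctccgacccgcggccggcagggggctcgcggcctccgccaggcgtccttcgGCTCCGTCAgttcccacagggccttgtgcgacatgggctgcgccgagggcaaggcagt
ME1, chr6:83431002-83431301, minus strand: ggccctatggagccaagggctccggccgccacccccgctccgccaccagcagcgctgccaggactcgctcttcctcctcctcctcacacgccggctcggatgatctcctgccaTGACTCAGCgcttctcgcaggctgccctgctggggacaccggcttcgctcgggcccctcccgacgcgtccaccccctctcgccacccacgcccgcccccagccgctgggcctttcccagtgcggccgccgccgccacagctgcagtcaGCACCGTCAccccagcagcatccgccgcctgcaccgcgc
The GCLM match begins 34 bases before the first transcribed base and lies on the opposite strand. TXNRD1 has matches 99 and 8 bases before that start and a further one before a downstream start (RefSeq window chr12:104286782-104287081), and ME1 has one 137 bases before its start and one after it. With 8 bases on either side, the GCLM match and the one before the downstream TXNRD1 start can be set beside the AP-1 word of OSGIN1.
GCLM: cgatttctGCTTAGTCAttgtcttc
TXNRD1, downstream start: ggatttctGCTTTGTCAttctgact
OSGIN1, AP-1 word: gcccctgcTGACTCAcgcttatg

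In AsPC-1, all 9 genes rose with MYEOV siRNA. The largest rises were those of SRXN1, SLC7A11, GCLC and HMOX1, from 5.02-fold down to 1.49-fold, and the smallest was that of NQO1. Among all 14304 tested genes, 16.6% were called higher by edgeR's quasi-likelihood test at a Benjamini-Hochberg adjusted p under 0.05, and 32.9% were called in either direction. In 8 of the 9 genes the siRNA libraries all lay above both controls, which held for 28.9% of tested genes, while 25.4% lay wholly below. The exception was ME1. The median log2 fold change was 0.50 over the 9 genes and -0.0024 over all tested genes. DESeq2 called 6 of the 9 higher, without GCLM, OSGIN1 and ME1, and 13.5% of the 12362 genes to which it gave an adjusted p. Each siRNA library on its own had all 9 genes above the control mean, a measure whose share over all tested genes was not computed. In libraries of this kind, fewer cells of a type and less RNA per cell cannot be told apart. Levels of all 9 genes in all 11 libraries are plotted on linear axes.

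**Figure D1:**
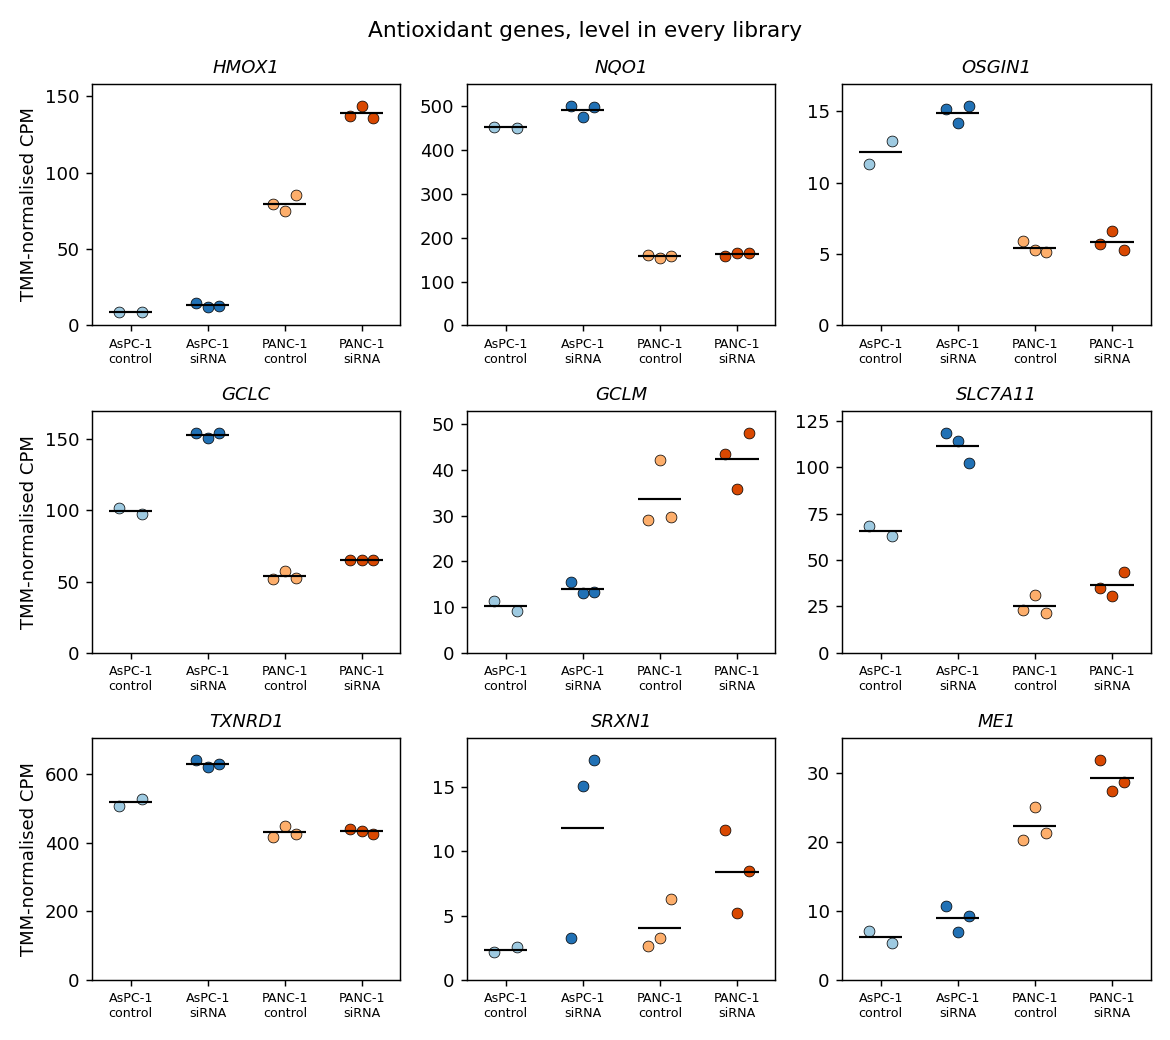
Each panel plots 1 gene, with the level of every library in CPM after TMM scaling on a linear axis from 0, grouped by line and treatment; the short line is the group mean. In AsPC-1 the 3 siRNA libraries lie above both controls for 8 of the 9 genes, SRXN1 has 1 siRNA library close to the controls, and HMOX1, GCLM and ME1 are higher in PANC-1 than in AsPC-1.

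HMOX1 splits haem into biliverdin, carbon monoxide and iron. In AsPC-1 it stood at 8.80 and 8.59 CPM (116 and 97 counts) in the controls and at 14.6, 11.8 and 13.1 CPM with siRNA. The groups were well apart for a gene this low, and the log2 fold change was 0.58 (SE 0.13; adjusted p = 7.65e-04). NQO1, a quinone reductase, stood at 452 and 450 CPM in the controls and 501, 475 and 498 CPM with siRNA. The groups did not overlap, but the change was small at 0.11 (SE 0.03; adjusted p = 0.0157). OSGIN1, an oxidative stress-induced growth inhibitor, stood at 11.3 and 12.9 CPM in the controls and 15.1, 14.1 and 15.4 CPM with siRNA. Its change of 0.29 (SE 0.11; adjusted p = 0.0496) lay at the edge of the threshold. The OSGIN1 call was lost without control 1 (log2 fold change 0.18, adjusted p = 0.397), siRNA 1 (0.28, 0.0926), siRNA 2 (0.32, 0.0527) or siRNA 3 (0.26, 0.114). NQO1 lost its call without control 1 (0.10, 0.117) or control 2 (0.11, 0.0834), and HMOX1 kept it in all 5 fits that left out 1 library.

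The glutathione genes rose as well, SLC7A11 and GCLC with less error than GCLM. SLC7A11, the light chain of the cystine importer, stood at 68.5 and 62.9 CPM in the AsPC-1 controls and at 119, 114 and 102 CPM with siRNA. GCLC, the catalytic subunit of the ligase for the first step of glutathione synthesis, stood at 102 and 97.8 CPM against 155, 151 and 154 CPM. Both genes were separated between groups by several times their spread, with log2 fold changes of 0.75 (SE 0.06; adjusted p = 2.16e-10) and 0.60 (SE 0.04; adjusted p = 5.21e-11). GCLM, the modifier subunit of the same ligase, stood at 11.2 and 9.04 CPM against 15.6, 13.0 and 13.3 CPM. Its change was 0.44 (SE 0.12; adjusted p = 0.00811), and without control 2, the lower of its controls, it was 0.31 (adjusted p = 0.153).

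SRXN1, which repairs over-oxidised peroxiredoxins, had the fifth highest log2 fold change of all tested genes in AsPC-1, at 2.33 (SE 0.43; adjusted p = 1.21e-04). The libraries did not share in it evenly. The controls held 28 and 29 counts (2.13 and 2.57 CPM), siRNA replicate 1 held 39 counts (3.26 CPM), and siRNA replicates 2 and 3 held 184 and 207 counts (15.1 and 17.1 CPM). Replicate 1 was therefore close to the controls and the other siRNA libraries far above them, and without replicate 1 the change was 2.77. TXNRD1, the cytosolic thioredoxin reductase, changed with little spread, from 509 and 528 CPM to 642, 622 and 630 CPM, a log2 fold change of 0.27 (SE 0.03; adjusted p = 4.55e-07). ME1, the cytosolic malic enzyme that yields NADPH, stood at 7.06 and 5.40 CPM in the controls and 10.7, 6.99 and 9.18 CPM with siRNA. One siRNA library of ME1 lay just under the higher control, and the change of 0.50 (SE 0.17; adjusted p = 0.0271) carried the widest error after SRXN1. The ME1 call was lost without control 2 (0.34, adjusted p = 0.285), siRNA 1 (0.35, 0.146) or siRNA 3 (0.48, 0.0526).

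In PANC-1, 5 of the 9 genes rose with MYEOV siRNA and 0 fell: HMOX1, GCLC, SLC7A11, SRXN1 and ME1. By the same edgeR test 4.16% of 14929 genes were called higher, 4.92% lower and 9.08% in either direction. DESeq2 called HMOX1, GCLC and ME1 higher, and 4.93% of the 11166 genes to which it gave an adjusted p. Without siRNA 1, HMOX1 was the 1 member still called. The groups did not overlap for 3 of the 9, HMOX1, GCLC and ME1, with the siRNA libraries higher, against 13.7% of tested genes. The median log2 fold change was 0.34 over the 9 genes and -0.0014 over all tested genes. All 9 genes were above the control mean in siRNA replicates 1 and 2, and 7 of 9 in replicate 3, again without a share over all tested genes. The spread between libraries was larger than in AsPC-1, with a biological coefficient of variation of 6.08% against 2.77%.

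HMOX1 gave the clearest change in PANC-1. It stood at 79.3, 74.7 and 85.5 CPM in the controls and at 138, 144 and 136 CPM with siRNA, so that each siRNA library was far above each control. The log2 fold change of 0.80 (SE 0.06; adjusted p = 2.15e-06) ranked 54th from the top of 14929 genes. HMOX1 kept its call in each fit that left out 1 PANC-1 library, with values from 0.76 to 0.85.

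Of the glutathione genes, GCLC stood at 51.8, 57.1 and 52.2 CPM in the PANC-1 controls and at 65.3, 65.0 and 65.1 CPM with siRNA, a log2 fold change of 0.28 (SE 0.06; adjusted p = 0.0118). The 3 siRNA libraries were almost equal and all above the controls. The GCLC call was lost without control 3 (0.26, adjusted p = 0.0569) or siRNA 1 (0.28, 0.0731). SLC7A11 stood at 22.8, 31.3 and 21.5 CPM against 34.9, 30.4 and 43.7 CPM, and its groups overlapped through control 2 and siRNA 2. Its change was 0.53 (SE 0.14; adjusted p = 0.0305). The SLC7A11 call was lost without control 1 (0.47, adjusted p = 0.117), control 3 (0.43, 0.125), siRNA 1 (0.56, 0.0868) or siRNA 3 (0.38, 0.138). GCLM, at 29.01, 42.3 and 29.7 CPM against 43.5, 35.8 and 48.2 CPM, showed the same pair of libraries out of line and did not pass the test (0.34, SE 0.13; adjusted p = 0.135). PANC-1 control 2 was the highest control for GCLM, SLC7A11, GCLC and ME1. Without it GCLM passed, at 0.53 (adjusted p = 0.00199), and 5 of the 9 genes were called. Over the 6 fits without 1 PANC-1 library, the number of all genes called ran from 538 to 1712.

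SRXN1 stood at 2.61, 3.23 and 6.25 CPM in the PANC-1 controls (40 to 99 counts) and 11.7, 5.18 and 8.46 CPM with siRNA (72 to 190 counts). Control 3 lay above siRNA 2, so the groups overlapped, and the log2 fold change was 1.06 (SE 0.30; adjusted p = 0.0422). The SRXN1 call was lost without control 1 (0.82, adjusted p = 0.16), control 2 (0.94, 0.0563), siRNA 1 (0.74, 0.235) or siRNA 3 (1.07, 0.0943). ME1 stood at 20.3, 25.1 and 21.3 CPM against 31.9, 27.4 and 28.7 CPM, without overlap, at 0.40 (SE 0.09; adjusted p = 0.0171). The ME1 call was lost without control 1 (0.34, adjusted p = 0.0707), control 3 (0.37, 0.0687) or siRNA 1 (0.33, 0.114). TXNRD1 stood at 417, 450 and 425 CPM against 441, 435 and 426 CPM, with interleaved groups, and its 95% interval for the log2 fold change ran from -0.09 to 0.11. For NQO1 the interval ran from -0.06 to 0.15 and for OSGIN1 from -0.20 to 0.41, and neither gene passed the test.

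Whether the response differed between the lines was tested by the interaction of line and siRNA in edgeR. The log2 fold changes of TXNRD1 and GCLC were lower in PANC-1 than in AsPC-1, TXNRD1 not being called in PANC-1 at all, and 2.28% of 16680 genes were called in that direction (2.07% in the other, 4.36% in either). The difference in log2 fold change was -0.27 for TXNRD1 (SE 0.06; adjusted p = 0.0079) and -0.34 for GCLC (SE 0.08; adjusted p = 0.0118). TXNRD1 lost this call without AsPC-1 control 1 (-0.25, adjusted p = 0.0847) and GCLC without AsPC-1 control 2 (-0.31, 0.0974). MYEOV itself fell less in PANC-1. By the same test its difference ran from 0.52 to 0.65 over the 11 fits without 1 library and was called in all 11. Whether the weaker fall of MYEOV has a part in the differences of TXNRD1 and GCLC was not tested.

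**Figure D2:**
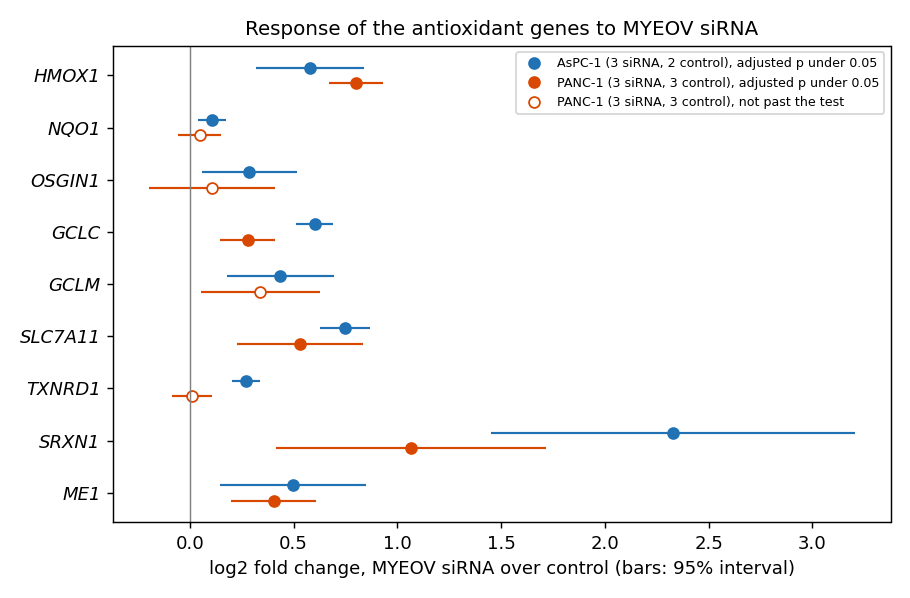
Points give the log2 fold change of siRNA over control for each of the 9 genes, AsPC-1 in blue and PANC-1 in orange, bars the 95% interval, and open points a change that did not pass the test. In AsPC-1 all 9 points are filled, and in PANC-1 the filled ones are HMOX1, GCLC, SLC7A11, SRXN1 and ME1.

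For the other 7 genes no difference between the lines was called, and the intervals show what remains possible. HMOX1 had a larger value in PANC-1 by 0.20, with a 95% interval from -0.08 to 0.49. For NQO1 the interval ran from -0.20 to 0.05, which is narrow, and for SLC7A11 from -0.59 to 0.12. The SRXN1 interval, from -2.74 to 0.19, covers both equal responses and a much smaller one in PANC-1. Without AsPC-1 siRNA 1, the library close to the controls, the SRXN1 difference was -1.72 (adjusted p = 0.0465).

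Control cells of the lines differed at 8 of the 9 genes. HMOX1 was 9.02-fold higher in PANC-1 than in AsPC-1 controls, ME1 3.48-fold and GCLM 3.24-fold. NQO1, SLC7A11, OSGIN1, GCLC and TXNRD1 were lower, at 34.3%, 37.6%, 44.4%, 52.9% and 81.8% of the AsPC-1 level. Of the 8 called genes 3 were higher and 5 lower. Over all 16182 tested genes 76.4% were called by edgeR, 40.3% as higher and 36.1% as lower, and 40.6% were called with a difference of over 2-fold. No group of control libraries overlapped the other in any of the 9 genes, 4 higher and 5 lower in PANC-1, against 83.6% of tested genes (45% higher, 38.7% lower). On the log2 scale the differences were 3.17 (SE 0.10; adjusted p = 3.74e-13) for HMOX1 and -1.54 (SE 0.05; adjusted p = 6.92e-13) for NQO1, in opposite directions. SRXN1 was at 0.77 (SE 0.35; adjusted p = 0.0533), not called, although its lowest PANC-1 control lay just above the higher AsPC-1 control. It passed without PANC-1 control 1 (1.03, adjusted p = 0.0128) or control 2 (0.92, 0.0077), and without PANC-1 control 3 it was at 0.30 (0.326).

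**Figure D3:**
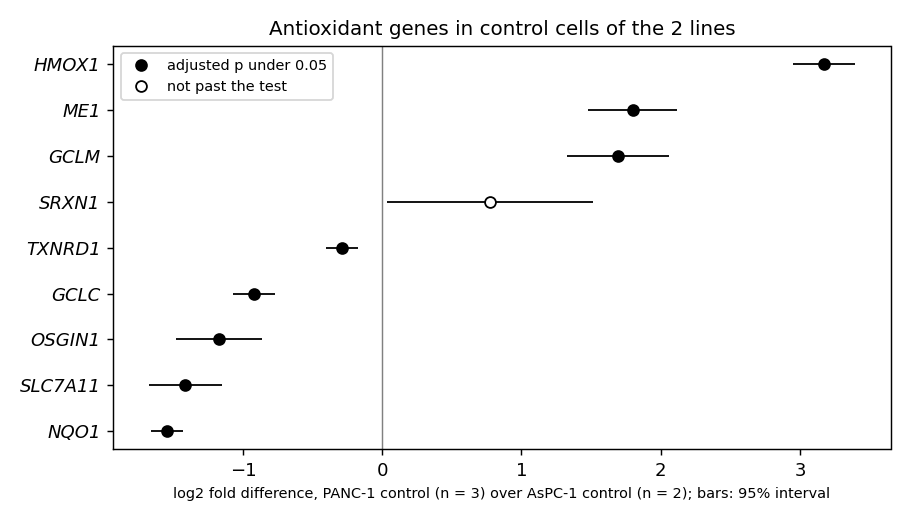
Points give the log2 fold difference of PANC-1 control over AsPC-1 control for the 9 genes, ordered by size, with 95% intervals, and the open point did not pass the test. HMOX1, ME1 and GCLM lie to the right of 0, and TXNRD1, GCLC, OSGIN1, SLC7A11 and NQO1 to the left.

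The siRNA effect on HMOX1 did not bridge the lines. AsPC-1 cells with siRNA reached 13.2 ± 1.4 CPM (SD, n = 3), while PANC-1 controls stood at 79.8 ± 5.4 CPM (SD, n = 3). The siRNA comparison in each line and this comparison of controls share the control libraries, so their values are given side by side and not related.

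Per kilobase of annotated exon, the order of the 9 genes differed between the lines. In AsPC-1 controls NQO1 led with 138.6 ± 0.5 CPM per kb (SD, n = 2), followed by TXNRD1 at 77.3 and, well below, GCLC at 11.6 and SLC7A11 at 6.81. HMOX1 (3.62) and OSGIN1 (3.503) did not differ beyond their spread, nor did GCLM (1.87) and ME1 (1.85), and SRXN1 was last at 0.87. In PANC-1 controls TXNRD1 led with 64.2 ± 2.6 CPM per kb (SD, n = 3), followed by NQO1 at 48.4 and HMOX1 at 33.2. ME1, GCLM and GCLC overlapped at 6.60, 6.21 and 6.21, SLC7A11 followed at 2.61, and OSGIN1 and SRXN1 overlapped at 1.57 and 1.49. With siRNA, HMOX1 at 57.8 ± 1.8 CPM per kb (SD, n = 3) passed NQO1 in PANC-1 and took the place behind TXNRD1, and these 3 did not overlap.

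The subunits of glutamate-cysteine ligase were balanced differently in the lines. The ratio of GCLC to GCLM, both per kilobase, was 5.69 and 6.79 in AsPC-1 controls and 1.12, 0.847 and 1.099 in PANC-1 controls. Every AsPC-1 library lay far above every PANC-1 library. With siRNA the ratios were 6.23, 7.29 and 7.27 in AsPC-1 and 0.940, 1.14 and 0.847 in PANC-1, which overlapped the controls in both lines. These are ratios of RNA, and exon lengths of all annotated transcripts enter them.

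Of the regulators of the programme, SQSTM1 and MAFG rose and BACH1 fell in both lines, and NFE2L2 and KEAP1 rose in AsPC-1. NFE2L2 stood at 163 CPM in both AsPC-1 controls and at 186, 182 and 183 CPM with siRNA, a log2 fold change of 0.16 (SE 0.04; adjusted p = 0.00284), which was lost without control 1 (0.15, adjusted p = 0.0513). In PANC-1 its libraries interleaved, from 142 to 155 CPM and from 146 to 158 CPM (0.02; adjusted p = 0.90). KEAP1 rose by 0.14 in AsPC-1 (SE 0.05; adjusted p = 0.0324) and was at -0.06 in PANC-1 (adjusted p = 0.68). Its AsPC-1 call was lost without control 1 (0.14, adjusted p = 0.132), control 2 (0.13, 0.148) or siRNA 3 (0.12, 0.0799). MAFG, a small MAF partner, rose by 0.30 in AsPC-1 (SE 0.06; adjusted p = 1.34e-04) and by 0.23 in PANC-1 (SE 0.06; adjusted p = 0.0264). The PANC-1 call of MAFG was lost without control 3 (0.24, adjusted p = 0.0687), siRNA 1 (0.23, 0.106), siRNA 2 (0.24, 0.0627) or siRNA 3 (0.21, 0.101). SQSTM1, which binds KEAP1 and is itself an NRF2 target, rose in both lines, from 641 and 650 CPM to 918, 902 and 882 CPM in AsPC-1 and from 343, 326 and 335 CPM to 443, 471 and 431 CPM in PANC-1. Its log2 fold changes were 0.47 (SE 0.03; adjusted p = 1.54e-11) and 0.42 (SE 0.05; adjusted p = 7.83e-05), with no overlap of groups.

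The repressor BACH1 was lower with siRNA in AsPC-1 and in PANC-1. AsPC-1 levels stood at 162 and 159 CPM in the controls and at 120, 121 and 124 CPM with siRNA, a log2 fold change of -0.42 (SE 0.04; adjusted p = 1.52e-08). In PANC-1 it stood at 16.0, 17.8 and 14.8 CPM in the controls and 10.8, 12.02 and 14.3 CPM with siRNA. The PANC-1 groups came close without overlapping, and the change was -0.40 (SE 0.12; adjusted p = 0.0475). This call was kept in 1 of 6 fits that left out a library, that without siRNA 3 (-0.51, adjusted p = 0.0276). It was lost without control 1 (-0.40, adjusted p = 0.0995), control 2 (-0.33, 0.0926), control 3 (-0.46, 0.0516), siRNA 1 (-0.30, 0.23) or siRNA 2 (-0.38, 0.118), and with DESeq2 (adjusted p = 0.0634). PANC-1 controls held 9.91% of the BACH1 level of AsPC-1 controls (log2 difference -3.33, SE 0.08; adjusted p = 1.13e-14). HMOX1 thus stood higher in the line with less BACH1 RNA and rose in both lines where BACH1 fell; a part of BACH1 in the level of HMOX1 was not tested.

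**Figure D4:**
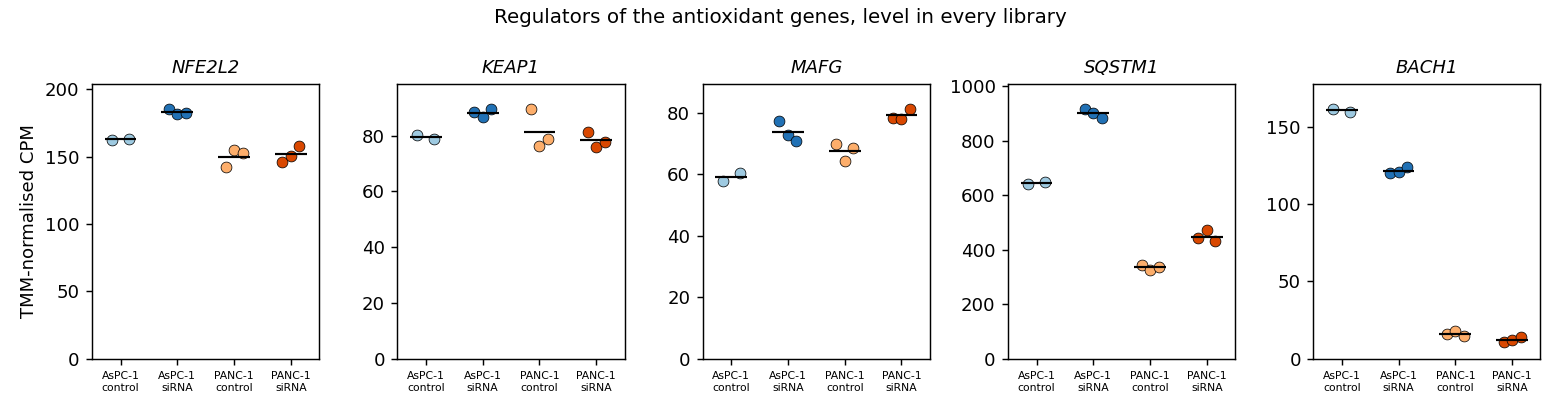
Each panel plots 1 regulator, with the level of every library in CPM after TMM scaling on a linear axis from 0 and the group mean as a short line. BACH1 is lower with siRNA in both lines and at 9.91% of the AsPC-1 level in PANC-1 controls, and SQSTM1 is higher with siRNA in both lines.

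Over the whole list of 12 NRF2 regulators, 4 rose and 2 fell in AsPC-1 and 3 rose and 1 fell in PANC-1. The shares over all tested genes were 16.6% higher and 16.3% lower in AsPC-1 and 4.16% and 4.92% in PANC-1. The called regulators not named above were NFE2L1 in AsPC-1, at -0.16 (SE 0.04; adjusted p = 0.00156), and BTRC in PANC-1, at 0.27 (SE 0.06; adjusted p = 0.0183). Of 29 other NRF2 targets, 11 rose and 4 fell in AsPC-1, a median of 0.07, while in PANC-1 4 rose and 2 fell of the 22 tested, a median of 0.08. The iron-storage genes FTL and FTH1 were among those that rose in both lines. FTL went from 1090 and 1082 CPM to 1852, 1836 and 1783 CPM in AsPC-1 (0.73, SE 0.03; adjusted p = 9.01e-16) and rose by 0.39 in PANC-1 (SE 0.05; adjusted p = 3.94e-04). The rise of FTL was smaller in PANC-1, by -0.36 (SE 0.06; adjusted p = 0.00217). FTH1 rose by 0.28 in AsPC-1 (SE 0.03; adjusted p = 1.94e-07) and 0.29 in PANC-1 (SE 0.06; adjusted p = 0.00752). UGDH, which makes UDP-glucuronate for conjugation, fell by 0.63 in AsPC-1 (SE 0.05; adjusted p = 8.04e-11) and 0.58 in PANC-1 (SE 0.06; adjusted p = 5.83e-05).

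Neighbouring stress lists held called genes of both directions in AsPC-1, where 16.6% of all tested genes were called higher and 16.3% lower. Of 15 tested glutathione enzymes 4 rose and 3 fell, of 19 thioredoxin, peroxiredoxin and dismutase genes 6 rose and 3 fell, of 18 haem and iron genes 6 rose and 4 fell, of 12 ATF4-type amino acid stress genes 4 rose and 3 fell, and of 13 heat shock and metallothionein genes 3 rose and 1 fell. In PANC-1 the counts were 1 up and 0 down of 16, 3 and 1 of 18, 4 and 1 of 17, 6 and 0 of 15, and 1 and 0 of 12, in the same order, where 4.16% of all tested genes were called higher and 4.92% lower. The list medians ran from -0.07 to 0.08 in AsPC-1 and from -0.03 to 0.22 in PANC-1. Glutathione reductase (GSR) was the 1 glutathione enzyme that rose in PANC-1, by 0.34 (SE 0.07; adjusted p = 0.00505). SLC7A11 is also a known target of ATF4. In AsPC-1 ATF4 itself fell by 0.14 (SE 0.04; adjusted p = 0.00303) and SLC7A5, an amino acid transporter of the list, fell by 0.25. CEBPB and TRIB3 of the same list rose there, by 0.94 (SE 0.13; adjusted p = 1.82e-06) and 0.34 (SE 0.11; adjusted p = 0.0152). In PANC-1 ATF4 was at 0.09 (adjusted p = 0.372), and SESN2 and PHGDH rose by 0.39 and 0.37. A part of ATF4 in the rise of SLC7A11 was not tested.

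Between control cells, 23 of the 29 other NRF2 targets were lower in PANC-1 and 4 were higher, a median of -1.85, beside -0.29 for the 9 genes and 0.06 for all tested genes. AKR1C3, an aldo-keto reductase, stood at 373 and 437 CPM in the AsPC-1 controls and had at most 1 count in any PANC-1 control. ALDH3A1, an aldehyde dehydrogenase, stood at 82.0 and 83.1 CPM against at most 2 counts. GSR stood at 231 ± 13 CPM (SD, n = 2) in AsPC-1 and 31.3 ± 0.6 CPM (SD, n = 3) in PANC-1. Of the 12 regulators, 3 were higher and 7 lower in PANC-1, beside 40.3% and 36.1% of all tested genes. MAFK was at 1.73 (SE 0.09) and SQSTM1 at -0.97 (SE 0.05). NFE2L2 and KEAP1 RNA differed little, at -0.14 (SE 0.06; adjusted p = 0.0479) and 0.01 (SE 0.08; adjusted p = 0.888). The NFE2L2 call was lost without AsPC-1 control 1 (-0.15, adjusted p = 0.188) or 2 (-0.14, 0.191), PANC-1 control 1 (-0.09, 0.16) or 3 (-0.15, 0.0855), and with upper-quartile scaling (-0.06).

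HMOX1 was compared with each of 9897 genes above a level minimum (mean log2 CPM at or over 3) in log2 CPM over the 11 libraries, after removing the mean of each line. The 5 genes most like it were ZNFX1 (Pearson's r = 0.987), BAZ2A (0.981), PC (0.974), ZBTB4 (0.971) and TAF5L (0.971). ZNFX1, for example, stood at 131 and 123 CPM in AsPC-1 controls and 146 to 155 CPM with siRNA, and at 84.5 to 87.4 CPM in PANC-1 controls and 108 to 114 CPM with siRNA. Among the members, GCLC was most like HMOX1 (r = 0.820, rank 610), then ME1 (0.802, rank 735), NQO1 (0.769, rank 942), SLC7A11 (0.763, rank 984), GCLM (0.664), OSGIN1 (0.607) and TXNRD1 (0.531), and SRXN1 was below the minimum level. After the mean of each group was removed, the values with HMOX1 were -0.21 for GCLC, 0.44 for ME1, 0.69 for NQO1, -0.41 for SLC7A11, -0.16 for GCLM, 0.24 for OSGIN1 and -0.03 for TXNRD1. For GCLC, SLC7A11, GCLM and TXNRD1 the likeness was thus not seen within groups. The closest pair of members was GCLM and SLC7A11, with r = 0.939, and 0.907 after the mean of each group was removed. All points share their library, its depth and the siRNA contrast, so these values are a description of 11 libraries.

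The members were also checked for a 7-base word in the 3′ UTR, since an earlier pass over these libraries had found it among genes that fell. CTCATGT occurs in an annotated 3′ UTR (GENCODE 29) of 16.4% of tested genes with a 3′ UTR in AsPC-1 and 16.4% in PANC-1. Among called genes it occurs in 31.0% of those lower and 11.4% of those higher in AsPC-1, and in 51.2% and 11.9% in PANC-1. Of tested genes with it, 658 of 1962 fell and 260 rose in AsPC-1, and 352 of 2058 fell and 71 rose in PANC-1. Of the 9 antioxidant genes, 0 carry it. Of all list genes and MYEOV, which has 0 copies, 13 of the 124 with a 3′ UTR do. Of these 13, 9 fell, 1 rose and 3 were not called in AsPC-1, and of the 9 tested in PANC-1, 4 fell, 1 rose and 4 were not called. The carriers that rose were AKR1C2 in AsPC-1 (0.18, adjusted p = 0.0226) and SLC7A5 in PANC-1 (0.22, 0.00587). TXN, thioredoxin itself, carries 1 copy and was called in neither line (adjusted p = 0.952 and 0.997). BACH1 carries 1 copy, and so do UGDH and PGD, an NADPH-yielding enzyme, which fell in both lines. The sites are printed with 10 bases on either side, GRCh38 coordinates and the word in capitals, as those of the genes on the NRF2 regulator and target lists that were called lower in both lines.
BACH1, chr21:29343063-29343089, plus strand: acctttaaaaCTCATGTtttaaagaat
UGDH, chr4:39499077-39499103, minus strand: ccaatataatCTCATGTataaaaactt
PGD, chr1:10419953-10419979, plus strand: ccaggagctgCTCATGTgcgtgagagt
PGD fell by 0.48 in AsPC-1 (SE 0.04; adjusted p = 1.52e-10) and by 0.30 in PANC-1 (SE 0.06; adjusted p = 0.00503). The word was found in these same libraries, so its shares are no independent evidence, and whether it has a part in the fall of BACH1 was not tested.

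Few counts were given to genes that share exon positions with the members. How reads on shared positions were counted is not known, so these counts do not show how many reads of a member were left out. AL121758.1 (chr20:646626-675800) shares exon positions with SRXN1 on the same strand, as do AC009119.2 with OSGIN1 and AL033397.1 with GCLC. Whether these members lost reads there was not tested. Genes that overlap exons of NQO1, GCLC, SLC7A11, SRXN1 or OSGIN1 had from 0 to 97 counts over all 11 libraries, against 1043 to 42904 for these members. The largest such ratio was that of OSGIN1, with 33 counts on an overlapping gene and 1332 of its own. Whether counting used strand is not known from the sources at hand, so reads of SLC7A11 and its antisense gene (97 counts beside 8341) cannot be told apart. In the annotation, HMOX1 lies at chr22:35380361-35394214, NQO1 at chr16:69706996-69726951, SLC7A11 at chr4:138164097-138242349, GCLC at chr6:53497341-53616970, SRXN1 at chr20:646615-653370 and OSGIN1 at chr16:83948282-83966332 (GENCODE 29, GRCh38).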

How the data were processed

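The data are RNA-seq counts of 11 libraries, made from poly(A) RNA and sequenced as 2 reads of 150 bases per the labels' protocols. The submitters' processing notes list HISAT2 and HTSeq, without versions, and the build hg19. The authors deposited raw counts per gene, 1 table per library, which were used as deposited. All 58735 identifiers occur in GENCODE 29 (GRCh38), used for names, exon lengths and positions. The tables hold 0 rows without a gene.

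Groups follow the sample titles. Each comparison was fitted over all genes with edgeR 4.0.16 under R 4.3.3 (low counts removed by filterByExpr, TMM scaling, glmQLFit, glmQLFTest, two-sided, Benjamini-Hochberg, threshold 0.05), each line on its own libraries, control against control on the controls, and the difference between lines on all 4 groups. A standard error is the log2 fold change over the square root of F. CPM were computed with TMM factors over 11 libraries, so precision follows the counts, 12113093 to 15066456 per library. Promoters came from RefSeq. Python 3.11.15 with pandas 2.3.3 and matplotlib 3.10.9 was used for joins and figures.

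The 9 genes and all lists were chosen with earlier results of these data known. Always named were the 9 genes, NFE2L2, KEAP1, BACH1, MAFG and MYEOV. Also named were, per list and comparison, up to 3 called genes of highest and 3 of lowest log2 fold change above a mean log2 CPM of 3, and the 5 genes most like HMOX1. Cell markers and genes overlapping the members were looked up beside them. AKR1C2, TXN, SLC7A5 and ATF4 were added after their values were seen. Each result was recomputed with RLE or upper-quartile factors, without the filter or with one of 5 CPM, with DESeq2 1.42.0, in a joint fit of the 4 groups, with a block for the replicate number, and without each library in turn. The fits were also tried on simulated counts, with changes planted in some of the genes above a mean log2 CPM of 3. Spread was drawn from the trend over genes. The AsPC-1 fit, with 14038 genes tested, recovered 65.7%, 97% and 100% of planted log2 changes of 0.3, 0.6 and 1.2. The PANC-1 fit, with 14719 genes tested, recovered 53.7%, 98.5% and 100%. For the difference between lines, with 16403 genes tested, the shares were 19.4%, 74.6% and 93.9%. These shares do not cover genes below that level, such as SRXN1 (2.90) and ME1 (2.87) in AsPC-1, or genes with a large spread of their own.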

Additional observations from a re-analysis of the deposited data

Results flagged for a closer look

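GCLC and TXNRD1 responded differently in the lines, by a test of the difference itself (the interaction of line and siRNA in edgeR). For GCLC the log2 fold change in PANC-1 minus that in AsPC-1 was -0.34 (adjusted p = 0.0118), with a rise in all 3 siRNA libraries of each line. For TXNRD1 it was -0.27 (adjusted p = 0.0079), with a rise in AsPC-1 and interleaved libraries in PANC-1. Of all 16680 tested genes, 4.36% had a called difference. With a block for the replicate number, neither gene kept its call. The target MYEOV also fell less in PANC-1, and whether that has a part in these differences was not tested.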

How the results depend on the processing

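The direction of each of the 9 genes in AsPC-1 and between controls was the same in every alternative, and so was that of HMOX1 in PANC-1. Of 484 values of the 9 genes under alternatives, 426 stayed on the same side of the threshold, 42 lost a call, 8 gained one and 8 changed sign. In AsPC-1, OSGIN1, NQO1, GCLM and ME1 lost their call in some of the fits without 1 library, as given above. In PANC-1 the number of the 9 genes called was 3 with DESeq2 and ran from 1 to 5 without 1 library. The number of all genes called there ran from 538 to 1712 without 1 library (538 without siRNA 1, 876 without siRNA 2, 863 without siRNA 3). For the difference between lines these ranges were 1 to 3 and 305 to 1056 (305 and 315 without AsPC-1 control 1 and 2, 475 without PANC-1 siRNA 1). The 8 changes of sign were 2 in PANC-1 and 6 for the difference between lines. PANC-1 TXNRD1 ran from -0.012 to 0.045 without 1 library, and the difference between lines from -0.28 to 0.11 for GCLM and from -0.32 to 0.061 for ME1. The cause was not tested.

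Deviations of same-numbered control and siRNA libraries did not correlate positively, at -0.04 and -0.03 in AsPC-1 and at -0.05, -0.55 and -0.20 in PANC-1. Deviations were taken from the group mean and cancel out within a group, so these correlations depend on each other. Whether replicate numbers pair the libraries is therefore not settled by them. Some PANC-1 libraries of unlike number did share deviations, control 1 with siRNA 2 at 0.52 and control 2 with siRNA 3 at 0.51. Control 1 with siRNA 3 was at -0.50. No label names what these libraries share, and its source was not tested. With the replicate block, 1 of the 9 genes (HMOX1) was called in PANC-1 and 0 for the difference, among 628 and 241 genes called. In AsPC-1 8 of the 9 were called with this block, and the number over all genes is not given here. Depth limits SRXN1 in both lines (28 and 29 counts in AsPC-1 controls, 40 to 99 in PANC-1 controls), HMOX1, GCLM, ME1 and OSGIN1 in AsPC-1 controls (61 to 149) and OSGIN1 in PANC-1 (69 to 93). With 2 controls, AsPC-1 errors lean on the spread shared over genes.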
